A study of Mus musculus with 4 samples.

Results

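Precursor messenger RNA is spliced by the spliceosome, a set of small nuclear ribonucleoprotein particles that is guided to its sites by RNA-binding proteins. SR proteins bind exons and favour their use, hnRNP proteins often oppose them, and the CLK and SRPK kinases phosphorylate SR proteins and so set where in the nucleus they act. Many of these factors sit in nuclear speckles or paraspeckles, and several of their genes, those of the SR proteins above all, are known to make alternative transcripts that keep an intron or a cassette exon. In T-cells splicing factors are best known for the exon choice of the CD45 gene upon activation.

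The values come from CD4+CD25+ T-cells of C57BL/6 mice that received the CD28 superagonist D665 intraperitoneally and whose lymph node cells were taken 3 days later. The animals were 6 to 12 weeks old, and all of them had the injection. All cells spent a night in culture with recombinant IL-2 (200 U/ml) and antibodies to CD28 (5 µg/ml) and CD3 (2 µg/ml), were stained with an IL-10 secretion assay and were sorted into IL-10+ and IL-10- cells. One array was hybridised for each of 2 IL-10+ samples (replicates 1 and 2) and 2 IL-10- samples (replicates 3 and 4), and the labels do not say whether the samples of a group came from separate mice or sorts, so the spread between them may be technical. The sort separated cells by what they secreted and not by Foxp3, the lineage factor of regulatory T-cells.

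The 51 genes described here are 12 SR proteins, 10 SR-related and RBM proteins, 7 splicing kinases, 4 factors of the U2 particle and of the 3′ splice site, 2 DEAD box helicases, 10 hnRNP proteins, 3 CELF and MBNL proteins and 3 components of nuclear bodies. A probe set, the group of oligonucleotides that gives 1 value per array, was used where the platform annotation names 1 gene alone for it, which left 50 of the 51 genes with 203 of the 34945 such probe sets. No probe set names Srsf7 alone, so that SR protein was not analysed here. Within a gene the probe set whose mean over all arrays is highest is called the brightest, and the other 153, which belong to 42 genes, are called dimmer. Rbm39 had the most probe sets, 12, and the sources used here do not say where in a transcript each probe set lies.

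All values are on the log scale of the deposited table. Its base is not stated, whereas in a legend of the study array differences are natural logs of the fold change. The values were read as log2, so that a difference of 1 corresponds to a doubling, and on a natural log scale each fold would be larger. A difference is the mean of the IL-10+ arrays minus that of the IL-10- arrays and is given with its standard error (SE) from the fit over all probe sets. A probe set was called higher or lower at an adjusted p under 0.05. With 2 arrays against 2 an exact permutation test cannot go below p = 0.333, so each call rests on the variance that limma shares across probe sets.

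Il10, whose product was the basis of the sort, read 12.02 and 12.00 on the IL-10+ arrays and 10.41 and 10.37 on the IL-10- arrays. Of 5 regulatory T-cell markers Foxp3 and Ikzf2 were lower in IL-10+ cells, by 0.72 and 0.55, Ctla4 was higher by 0.87, and Il2ra and Tnfrsf18 were not called. Of 5 general T-cell markers, all bright on every array, Cd3g, Cd4 and Cd28 were higher, by 0.41, 0.51 and 0.77, and 0 were lower (Cd3d and Cd3e were not called, at an adjusted p of 0.256 and 0.25). Of 7 B cell and plasma cell markers 6 were lower in IL-10+ cells and 0 were higher, and their summed level was 45.62 to 45.98 on the IL-10+ arrays and 54.78 to 55.40 on the IL-10- arrays. Of 4 NK cell markers Klrd1 and Eomes were lower, by 1.13 and 0.62, of 2 CD8 T-cell markers Cd8b1 was lower by 0.24, and of 6 myeloid markers Cd14 and Csf1r were higher, by 0.49 and 0.30. The probe sets near the 5′ end of 4 poly-A transcripts added to the RNA differed by a median of 1.22 (0.68 to 2.16), whereas those near the 3′ end differed by a median of 0.04. The 5′ and 3′ probe sets of b-actin differed by 1.12 and 0.40, and those of Gapdh by 0.88 and 0.02. The part of these markers and control RNAs in the results below was not tested.

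Splicing genes were found on both sides of the comparison, and the brightest and the dimmer probe sets were called in different proportions. Of all 203 probe sets 76 were higher in IL-10+ cells and 39 were lower, 37.4% and 19.2%, where 13.9% and 18.4% of all single-gene probe sets were called. Among the 50 brightest probe sets 11 were higher and 17 lower, which is 22.0% and 34.0% against a background of 8.37% and 22.9%. Among the 153 dimmer probe sets 65 were higher and 22 lower, which is 42.5% and 14.4% against a background of 20.0% and 13.4%. At a size of 2-fold with an adjusted p under 0.001, which are the limits of the study's methods, 15 were higher and 2 lower, which is 7.39% and 0.985% against 1.80% and 0.650% of all probe sets. With the values taken as natural logs the same limits gave 26 higher and 3 lower, which is 12.8% and 1.48% against 3.48% and 2.53%.

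The median difference was -0.09 for the brightest and 0.15 for the dimmer probe sets of splicing genes, against -0.02 and 0.03 over all genes. The counts of the brightest depended on the scaling of the arrays. They turned to 16 higher and 13 lower after quantile normalisation, where 9.11% and 21.9% of the brightest of all genes were called. Centring the arrays on their bright probe sets, which adds 0.118 to each difference, gave 15 and 11 against 19.5% and 15.2%, and centring on the median gave 9 and 19 against 5.59% and 29.8%. The dimmer probe sets were more often higher than lower under each of these scalings, with 68 and 21, 82 and 14, and 56 and 29, where the shares over all genes were 18.6% and 14.3%, 32.3% and 8.18%, and 16.3% and 19.5%. Leaving out either IL-10+ array lowered both counts of the brightest, and the shares over all genes fell as well. Such a fit leaves a single array in that group.

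The median value of the probe sets of splicing genes was 8.63, against 6.55 over all genes, and brighter probe sets are called more often, so the same counts were read at a mean of at least 7, a limit chosen after seeing the data. All 50 brightest probe sets passed it, and over all genes 13.3% of the brightest were then higher and 42.6% lower, so that splicing genes had a larger share higher and a smaller share lower. Of the 106 dimmer probe sets that passed, 46 were higher (43.4%) and 19 lower (17.9%), against 31.7% and 29.7% over all genes. Core spliceosome and exon junction genes outside these 51, a list of 66 of which 60 had probe sets, showed other proportions. At the same limit 5 of their 58 brightest probe sets were higher and 35 lower, and 9 of their 51 dimmer probe sets were higher and 23 lower.

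**Figure D1:**
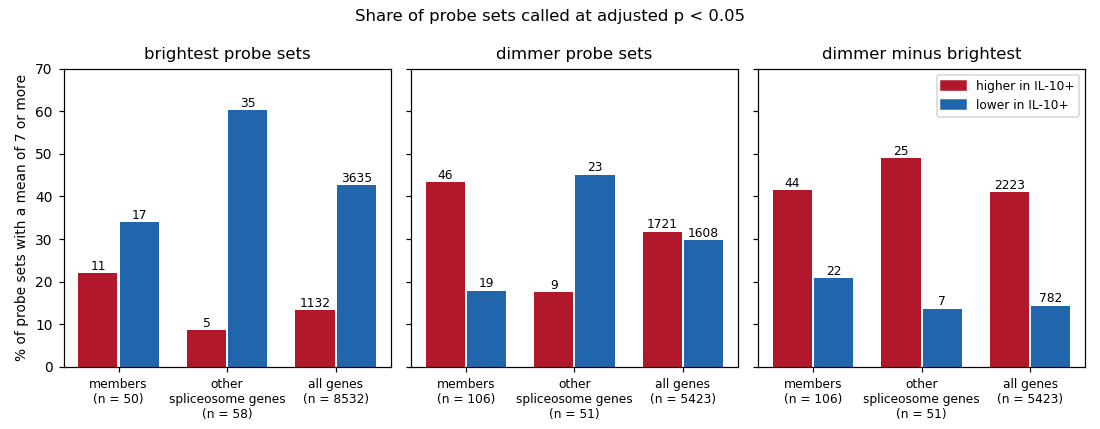
Bars give the percentage of probe sets at a mean of at least 7 that were called higher (red) or lower (blue) in IL-10+ cells at an adjusted p under 0.05, with the number called above each bar, for the 51 splicing genes ("members"), other spliceosome genes and all genes. In the middle panel 46 dimmer probe sets of the splicing genes were higher and 19 lower, and in the right panel the share of dimmer probe sets that shifted up against the brightest of their gene is close to that of all genes.

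Whether the probe sets of a gene differed among themselves was tested on each array's value of a dimmer probe set minus that of the brightest of its gene. Of 153 such gaps 67 were larger in IL-10+ cells (43.8%) and 26 smaller (17.0%), where 30.6% and 9.31% of the gaps of all genes were. The other spliceosome genes had 46 of 88 gaps larger (52.3%) and 11 smaller (12.5%), so the upward shift was not particular to the genes described here. For dimmer probe sets at a mean of at least 7 the counts were 44 and 22 of 106, which is 41.5% and 20.8% against 41.0% and 14.4%, so the upward share lay near that of all genes. Quantile normalisation gave 55 larger and 33 smaller gaps. Shares over all genes were not read for gaps under this scaling or with an array left out. Without IL-10+ replicate 2 the counts were 42 and 15, and without IL-10+ replicate 1 there were 16 smaller gaps. At least 1 dimmer probe set shifted up in 30 of the 42 genes with several (71.4%) and at least 1 shifted down in 14 (33.3%), against 36.7% and 13.1% of the 9010 genes with several in the whole table. Of these 42 genes 13 (31.0%) had probe sets called in both directions, as did 12.0% of the 9010. Each of these tallies depends on how many probe sets a gene has, and a splicing gene of this kind had a median of 4 where a gene of the whole table had 2.

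**Figure D2:**
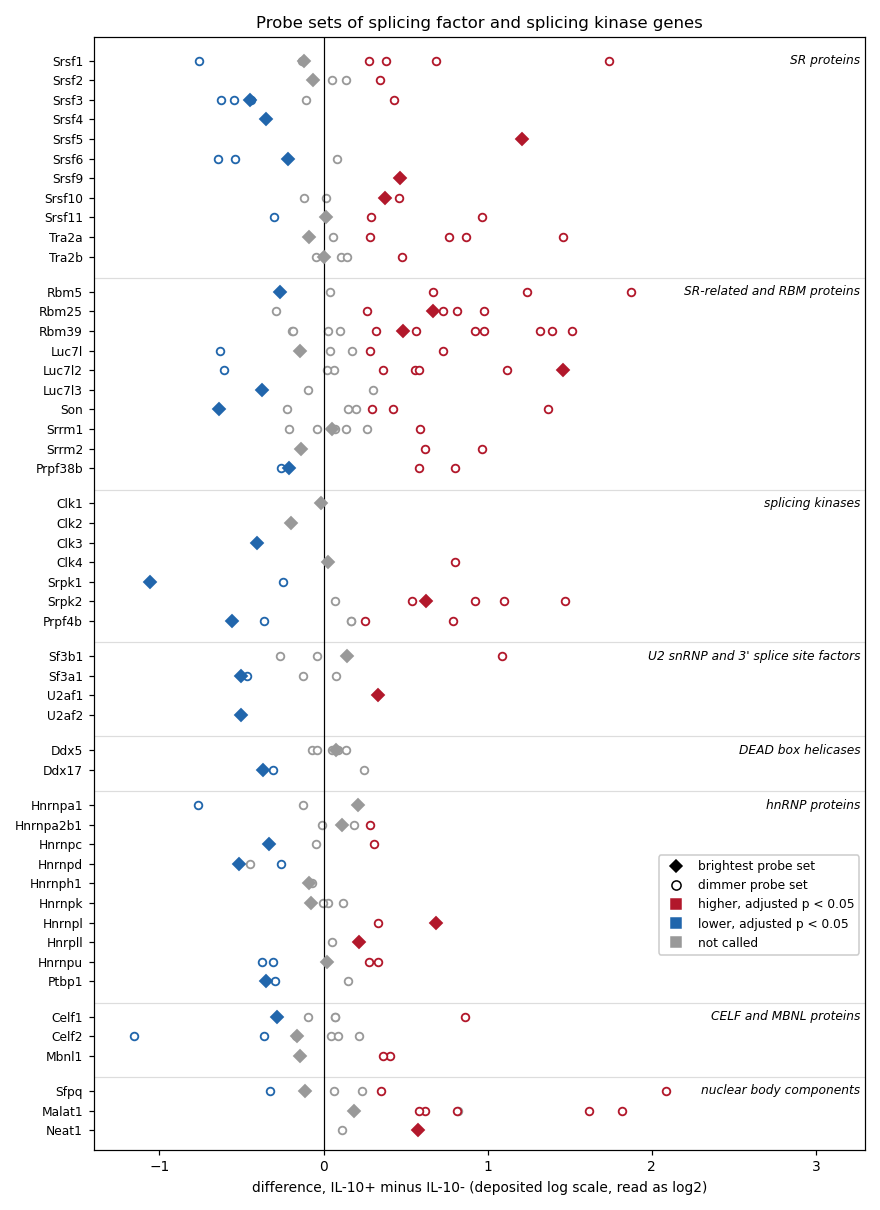
Each row is a gene, grouped by role, and each mark is 1 of its probe sets, placed by the IL-10+ minus IL-10- difference on the deposited log scale; diamonds are the brightest probe set, circles the dimmer ones, and colour gives the call at an adjusted p under 0.05. The largest difference is 2.08 for a dimmer probe set of Sfpq, and the lowest is -1.16 for a dimmer probe set of Celf2.

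The SR proteins did not move as 1 group. Of the 11 brightest probe sets 3 were higher and 3 lower, where 8.37% and 22.9% of the brightest of all genes were. Of the 32 dimmer ones 14 were higher and 7 lower, against 20.0% and 13.4% over all genes. Srsf5, an SR protein with a single probe set (1423130_a_at), had the largest difference among the brightest probe sets of SR proteins. It read 11.79 and 11.88 on the IL-10+ arrays and 10.53 and 10.72 on the IL-10- arrays, a difference of 1.21 (SE 0.081, adjusted p = 5.39e-05), or 2.31-fold if the scale is log2. Both IL-10+ arrays were above both IL-10- arrays, and the call held without any 1 of them.

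Srsf1, the founding SR protein and a general splicing factor, showed differences of both signs. Its brightest probe set read 11.39 and 11.46 in IL-10+ and 11.54 and 11.55 in IL-10- cells, a difference of -0.12 that was not called (adjusted p = 0.22). The fourth of its 7 probe sets (1452430_s_at) read 9.70 and 9.85 against 8.10 and 7.97, a difference of 1.74 (SE 0.080, adjusted p = 1.41e-05). The sixth (1428100_at) read 7.40 and 7.56 against 8.19 and 8.29, a difference of -0.76 (SE 0.077, adjusted p = 0.000318). The groups overlapped in neither, and both probe sets also shifted against the brightest, by 1.86 and -0.64. The third, the fifth and the seventh probe sets were higher by 0.38, 0.68 and 0.28, the last of them not without IL-10+ replicate 1 or 2 (adjusted p = 0.0699 and 0.127) or after median centring (0.0512).

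Srsf3, a small SR protein that also helps export messenger RNA, was lower in 4 of its 6 probe sets, the brightest by 0.45 (adjusted p = 0.00655). The second probe set read 9.57 and 9.62 in IL-10+ cells and 10.04 and 10.24 in IL-10- cells, a difference of -0.55 (SE 0.080, adjusted p = 0.00172). The fifth read 7.14 and 7.25 against 7.74 and 7.89, a difference of -0.62 (SE 0.078, adjusted p = 0.000829). Neither shifted against the brightest (adjusted p = 0.432 and 0.174), so these 3 probe sets differed in the same direction by similar amounts. The dimmest by rank, the sixth, went the other way and was higher by 0.43 (adjusted p = 0.00416).

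Srsf6 was lower in 3 of 4 probe sets. Its second read 9.55 and 9.47 in IL-10+ and 10.05 and 10.05 in IL-10- cells, a difference of -0.54 (SE 0.064, adjusted p = 0.000649). The third read 9.11 and 9.09 against 9.81 and 9.67, a difference of -0.64 (SE 0.071, adjusted p = 0.000466). Both IL-10- arrays were the higher ones in each. The single probe set of Srsf4 was lower by 0.35 (adjusted p = 0.0148), and that of Srsf9 was higher by 0.47 (adjusted p = 0.022). Calls of 3 of these probe sets were lost in places. That of Srsf4 was lost without IL-10+ replicate 1 or 2 (adjusted p = 0.0659 and 0.0678) and after centring on bright probe sets (0.05), and that of Srsf9 without IL-10+ replicate 2 (0.109), its difference being 0.29 without IL-10- replicate 3. The call of the brightest Srsf6 probe set, a difference of -0.21, was lost without IL-10+ replicate 1 or 2 (0.187 and 0.183) or IL-10- replicate 3 (0.0506), after quantile normalisation (0.307) and after centring on bright probe sets (0.311).

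Srsf10, an SR protein that represses splicing once dephosphorylated, was higher by 0.37 in its brightest probe set (adjusted p = 0.00298), and Srsf2, which marks nuclear speckles, had 1 of 4 probe sets called, higher by 0.34. In Srsf11 the brightest probe set differed by 0.02 and was not called. The fourth (1439095_at) read 7.41 and 7.53 in IL-10+ and 6.50 and 6.51 in IL-10- cells, a difference of 0.97 (SE 0.069, adjusted p = 6.84e-05). Its second read 8.93 and 8.93 against 9.21 and 9.26, a difference of -0.30 (SE 0.063, adjusted p = 0.00858) that was lost without IL-10+ replicate 1 or 2 (adjusted p = 0.0675 and 0.0625) and after centring on bright probe sets (0.0727). The Srsf11 probe sets thus lay apart in the groups in both directions.

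The Transformer-2 homologues Tra2a and Tra2b, which activate exons through purine-rich enhancers, had brightest probe sets that were not called, with differences of -0.09 and less than 0.01 in size. In Tra2a 4 of the 5 dimmer probe sets were higher, the weakest by 0.28 and not without IL-10+ replicate 2 (adjusted p = 0.131). The third (1442886_at) read 7.47 and 7.58 in IL-10+ and 5.99 and 6.13 in IL-10- cells, a difference of 1.46 (SE 0.076, adjusted p = 2.35e-05). It shifted against the brightest by 1.55 (adjusted p = 1.6e-05). In Tra2b 1 of 4 dimmer probe sets was higher, by 0.48 (adjusted p = 0.00251).

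SR-related and RBM proteins held the largest share of higher probe sets among the larger role groups. Of their 51 dimmer probe sets 28 were higher and 3 lower, where 20.0% and 13.4% of the dimmer probe sets of all genes were. Probe sets of a gene are not independent, and Rbm39 gave 8 of the 31 higher ones among all 61 of this role. Of the 10 brightest, 3 were higher and 4 lower, against 8.37% and 22.9% over all genes. Rbm5, an RNA-binding protein that in human cells alters the exon choice of the death receptor gene FAS, is given in full. Its brightest probe set (1452186_at) read 10.23 and 10.27 in IL-10+ and 10.42 and 10.62 in IL-10- cells, a difference of -0.27 (SE 0.081, adjusted p = 0.0418). The second (1452187_at) read 8.50 and 8.63 against 7.43 and 7.22, a difference of 1.24 (SE 0.089, adjusted p = 7.09e-05). The third read 7.32 and 7.43 against 6.78 and 6.64, a difference of 0.67 (SE 0.077, adjusted p = 0.000552). These dimmer probe sets were thus high on both IL-10+ arrays while the brightest was low on them.

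The fourth Rbm5 probe set (1438069_a_at) read 7.62 and 7.70 against 5.75 and 5.81, a difference of 1.88 (SE 0.067, adjusted p = 5.97e-06), which is 3.67-fold if the scale is log2. Its gap to the brightest grew by 2.14 (SE 0.096, adjusted p = 6.06e-06). The fifth read 6.46 and 6.57 against 6.53 and 6.42, with overlapping groups and a difference of 0.04 whose sign depended on the scaling. The call of the brightest Rbm5 probe set was lost without IL-10+ replicate 1 or 2 (adjusted p = 0.19 and 0.122), without IL-10- replicate 4 (0.123), where the difference was -0.17, after quantile normalisation (0.147) and after centring on bright probe sets (0.159).

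Rbm39, a coactivator and splicing factor related to U2AF, was higher in its brightest probe set by 0.48 (adjusted p = 0.00606) and in 7 of 11 dimmer ones. The sixth (1446147_at) read 10.17 and 10.21 in IL-10+ and 8.52 and 8.83 in IL-10- cells, a difference of 1.52 (SE 0.10, adjusted p = 5.11e-05). The seventh (1446148_x_at) read 10.02 and 10.03 against 8.53 and 8.74, a difference of 1.39 (SE 0.082, adjusted p = 3.41e-05). The ninth read 9.54 and 9.65 against 8.51 and 8.03, a difference of 1.32 (SE 0.14, adjusted p = 0.000389). Every one of these was higher on both IL-10+ arrays, and 0 of the 12 Rbm39 probe sets were called lower, also with a robust or a trended prior, although 2 lay lower at an unadjusted p of 0.05. A further 3, with differences of -0.19, -0.19 and 0.10, shifted down against the brightest, by 0.68, 0.67 and 0.38.

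Rbm25, which in human cells binds exons and recruits the U1 particle, was higher in 5 of 6 probe sets. The brightest read 8.87 and 9.21 in IL-10+ and 8.06 and 8.69 in IL-10- cells, a difference of 0.66 (SE 0.20, adjusted p = 0.0382), and the call was lost without IL-10+ replicate 2 (adjusted p = 0.147), while the difference was 0.35 without IL-10- replicate 3. Its dimmest by rank was higher by 0.98 (adjusted p = 0.000129). IL-10- replicate 3 was the lowest array in each of these.

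The Luc7-like proteins, homologues of a yeast component of the U1 particle, differed from each other. Luc7l2 was the splicing gene whose brightest probe set rose most. That probe set (1436766_at) read 11.40 and 11.40 in IL-10+ and 9.76 and 10.12 in IL-10- cells, a difference of 1.46 (SE 0.11, adjusted p = 8.6e-05), or 2.75-fold if the scale is log2. The second (1423251_at) read 9.81 and 9.87 against 10.36 and 10.53, a difference of -0.61 (SE 0.077, adjusted p = 0.000892). The groups did not overlap in either, and the gap between them fell by 2.07 (SE 0.10, adjusted p = 8.08e-06). All 7 dimmer Luc7l2 probe sets shifted down against the brightest, although 4 of them were themselves higher, by 0.36 to 1.12, the smallest of these not without IL-10+ replicate 2 (adjusted p = 0.063).

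In Luc7l the brightest probe set differed by -0.14 and was not called. The second of 6 read 7.50 and 7.31 in IL-10+ and 8.02 and 8.06 in IL-10- cells, a difference of -0.63 (SE 0.079, adjusted p = 0.000814). The fourth read 7.71 and 7.78 against 6.97 and 7.06, a difference of 0.73 (SE 0.068, adjusted p = 0.000213). Each group stood clear of the other in both. Luc7l3 was lower by 0.38 in its brightest probe set (adjusted p = 0.00449), and its 2 dimmer ones were not called.

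Son, a large SR-related scaffold of nuclear speckles, was lower in its brightest probe set and higher in 3 of its 6 dimmer ones. The brightest (1420952_at) read 11.46 and 11.38 in IL-10+ and 12.11 and 12.01 in IL-10- cells, a difference of -0.64 (SE 0.069, adjusted p = 0.000425). The fifth of 7 (1420951_a_at) read 8.87 and 8.90 against 7.79 and 7.24, a difference of 1.37 (SE 0.15, adjusted p = 0.000488). All 6 dimmer Son probe sets shifted up against the brightest, by 0.41 to 2.00, although 3 of them were not themselves called. The higher call of the fourth, a difference of 0.29, was lost without IL-10+ replicate 1 (adjusted p = 0.151).

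Srrm1 and Srrm2, serine and arginine repetitive matrix proteins of speckles and the spliceosome, had brightest probe sets that were not called. That of Srrm2 differed by -0.14, and the sign depended on a single array, with a difference of -0.57 without IL-10- replicate 3 (adjusted p = 0.000125) and of 0.29 without replicate 4 (adjusted p = 0.0156). In Srrm1 1 of 6 dimmer probe sets was higher, by 0.59 (adjusted p = 0.000831). In Srrm2 both dimmer ones were higher, by 0.62 (adjusted p = 0.000316) and 0.97 (adjusted p = 0.034). The latter read 8.59 and 8.60 in IL-10+ and 7.11 and 8.15 in IL-10- cells, so its size came largely from IL-10- replicate 3 (0.45 without it, 1.48 without replicate 4), and its call was lost without IL-10+ replicate 1 or 2 (adjusted p = 0.0652 and 0.0672).

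Prpf38b, a serine and arginine rich pre-messenger RNA processing factor, was lower in its 2 brighter probe sets and higher in its 2 dimmer ones. The second read 8.70 and 8.72 in IL-10+ and 8.87 and 9.07 in IL-10- cells, a difference of -0.26 (SE 0.081, adjusted p = 0.0493). The third read 7.22 and 7.39 against 6.17 and 6.83, a difference of 0.80 (SE 0.19, adjusted p = 0.0141). The higher calls held without any 1 array, with 0.47 for the third without IL-10- replicate 3. Both lower calls were lost without IL-10+ replicate 1 or 2 (adjusted p = 0.138 and 0.265 for the brightest, 0.189 and 0.157 for the second), and also without IL-10- replicate 3 for the brightest (0.061) and IL-10- replicate 4 for the second (-0.15, adjusted p = 0.156). They were lost too after quantile normalisation (0.261 and 0.101) and after centring on bright probe sets (0.348 and 0.188).

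**Figure D3:**
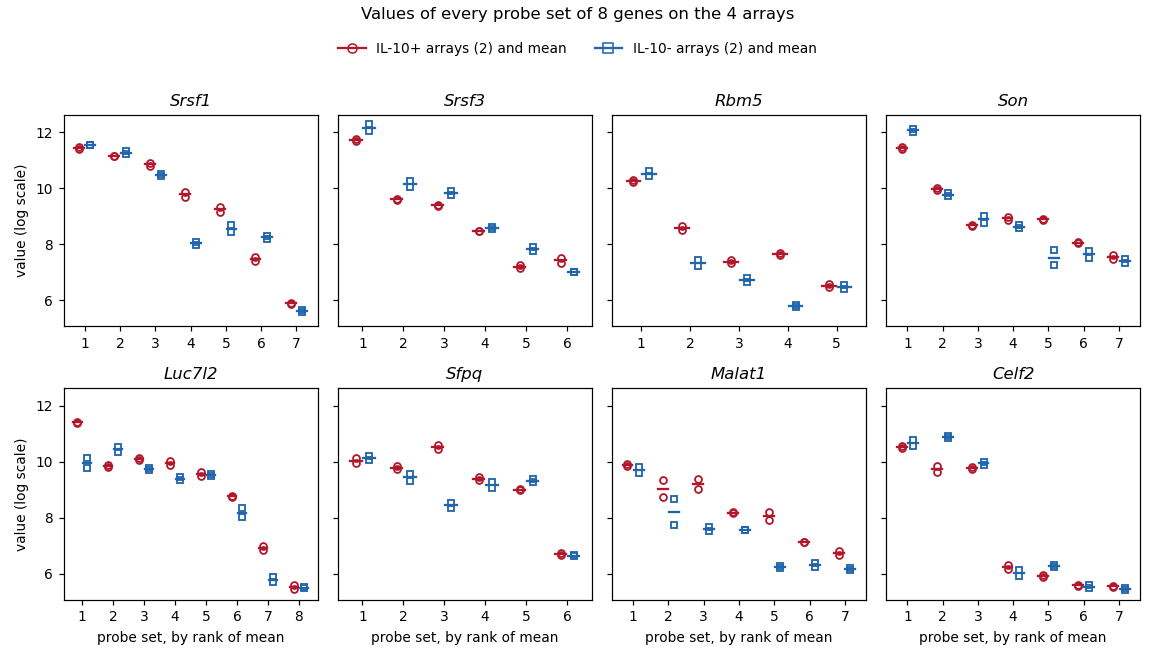
Each panel shows every probe set of 1 gene, ordered along the x axis by its mean, with the value on each of the 2 IL-10+ arrays (red circles) and 2 IL-10- arrays (blue squares) on the deposited log scale and a line at each group mean. In Rbm5 and Son the IL-10+ arrays lie below the IL-10- arrays for the brightest probe set and above them for several dimmer ones, and in Luc7l2 the order is the reverse for the first pair.

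The splicing kinases were called in both directions. Of 7 brightest probe sets 1 was higher and 3 lower, where 8.37% and 22.9% of the brightest of all genes were. Of 12 dimmer ones 7 were higher and 2 lower, against 20.0% and 13.4% over all genes. Srpk1, a cytoplasmic SR protein kinase that drives SR proteins into the nucleus, had the largest fall of any brightest probe set here. It (1455107_at) read 9.51 and 9.59 in IL-10+ and 10.46 and 10.76 in IL-10- cells, a difference of -1.06 (SE 0.10, adjusted p = 0.000246), or 2.08-fold lower if the scale is log2. Its other probe set was lower by 0.25 (adjusted p = 0.03), a call lost without IL-10+ replicate 1 or 2 (adjusted p = 0.193 and 0.102) or IL-10- replicate 3 (0.0704), after quantile normalisation (0.211) and after centring on bright probe sets (0.218).

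Srpk2, the related kinase, went the other way in 5 of 6 probe sets. Its brightest was higher by 0.63 (SE 0.14, adjusted p = 0.0102). The fifth (1431372_at) read 8.13 and 8.15 in IL-10+ and 6.64 and 6.70 in IL-10- cells, a difference of 1.47 (SE 0.064, adjusted p = 1.23e-05). Both calls held without any 1 array. The other dimmer Srpk2 calls were of 0.54, 0.92 and 1.10, and the dimmest by rank differed by 0.07 and was not called.

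The CLK kinases are nuclear enzymes that release SR proteins from speckles. Clk1 did not differ detectably between the groups on these arrays. Its single probe set (1426124_a_at) read 11.40 and 11.38 in IL-10+ and 11.29 and 11.53 in IL-10- cells, with the IL-10+ arrays between the IL-10- arrays and a difference of -0.02 (SE 0.088, adjusted p = 0.927). The sign of this difference depended on the scaling. Clk2 differed by -0.20 and was not called (adjusted p = 0.068), and Clk3 was lower by 0.41 (adjusted p = 0.0073).

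Clk4 had 2 probe sets that differed from each other. The brighter (1422886_a_at) read 7.88 and 7.88 in IL-10+ and 7.64 and 8.07 in IL-10- cells, a difference of 0.03 (SE 0.13, adjusted p = 0.908) with overlapping groups and no stable sign. It was called higher without IL-10- replicate 4 (0.25, adjusted p = 0.0245). The dimmer (1427663_a_at) read 7.81 and 7.86 against 6.95 and 7.12, a difference of 0.80 (SE 0.077, adjusted p = 0.000245). Only the dimmer one was higher on both IL-10+ arrays, and the gap between them differed by 0.77 (adjusted p = 0.00077).

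Prpf4b, a kinase that acts on the assembling spliceosome, was lower in its 2 brighter probe sets and higher in 2 of its 4 dimmer ones. The brightest (1455696_a_at) read 8.79 and 8.78 in IL-10+ and 9.30 and 9.39 in IL-10- cells, a difference of -0.56 (SE 0.066, adjusted p = 0.000601). The third (1425497_a_at) read 8.48 and 8.50 against 7.77 and 7.63, a difference of 0.79 (SE 0.072, adjusted p = 0.000195). The weaker higher call, of 0.25, was lost without IL-10+ replicate 1 or 2 (adjusted p = 0.133 and 0.126) or IL-10- replicate 4 (0.054) and after median centring (0.0801). The gap between the brightest and the third differed by 1.35 (SE 0.11, adjusted p = 4.99e-05), and the groups overlapped in neither.

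**Figure D4:**
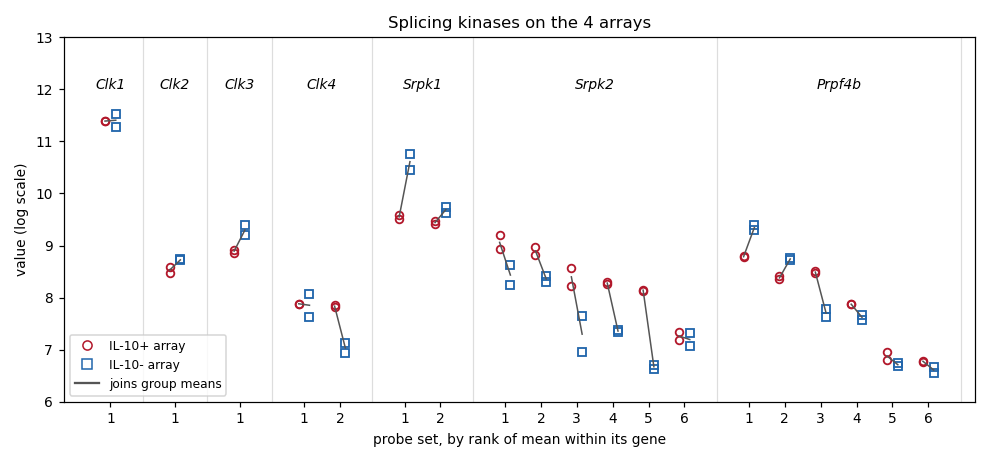
Values of every probe set of the 7 splicing kinases on the deposited log scale (y axis), ordered by mean within each gene, with the 2 IL-10+ arrays as circles, the 2 IL-10- arrays as squares and a line between the group means. The brightest Srpk1 probe set lies 1.06 lower in IL-10+ cells, while 5 of 6 Srpk2 probe sets lie higher.

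Among the factors of the U2 particle and the 3′ splice site, both subunits of U2AF have a single probe set here, with differences of opposite sign. U2af2, the subunit that binds the polypyrimidine tract, read 9.78 and 9.82 in IL-10+ and 10.26 and 10.34 in IL-10- cells, a difference of -0.51 (SE 0.065, adjusted p = 0.00093). U2af1, which contacts the 3′ splice site itself, was higher by 0.33 (adjusted p = 0.0258), a call lost without IL-10+ replicate 2 (adjusted p = 0.183) and after median centring (0.0617). Sf3a1 was lower by 0.50 in its brightest and by 0.47 in its second probe set. Sf3b1, the branch site factor, differed by 0.14 in its brightest probe set and was not called (adjusted p = 0.238), except without IL-10- replicate 4 (0.0316), after quantile normalisation (0.0153) and after centring on bright probe sets (0.0309), but its second read 11.67 and 11.72 in IL-10+ and 10.34 and 10.88 in IL-10- cells and was higher by 1.09 (SE 0.15, adjusted p = 0.00136).

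The RNA helicases Ddx5 and Ddx17 are close relatives. Limma called 0 of 6 Ddx5 probe sets, with differences of -0.07 to 0.14, and 0 passed an unadjusted p of 0.05 or were called with a robust or a trended prior. The brightest was called higher after quantile normalisation (0.21, adjusted p = 0.0345) and the fourth without IL-10- replicate 4 (0.32, adjusted p = 0.0061). The brightest probe set of Ddx17 read 11.58 and 11.54 in IL-10+ and 11.89 and 11.97 in IL-10- cells, a difference of -0.37 (SE 0.066, adjusted p = 0.00413), and 1 of its 2 dimmer ones was lower by 0.31, a call lost without IL-10+ replicate 2 (adjusted p = 0.108), after quantile normalisation (0.116) and after centring on bright probe sets (0.0813).

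The hnRNP proteins, abundant nuclear RNA-binding proteins, were split. Of 10 brightest probe sets 2 were higher and 3 lower, where 8.37% and 22.9% of the brightest of all genes were. Of 21 dimmer ones 5 were higher and 5 lower, against 20.0% and 13.4% over all genes. Hnrnpl had the largest rise of the brightest ones and is known for silencing the variable exons of CD45. It read 7.65 and 7.87 in IL-10+ and 7.12 and 7.04 in IL-10- cells, a difference of 0.69 (SE 0.086, adjusted p = 0.000831). Its paralogue Hnrpll, which drives that exon skipping in activated T-cells, was higher by 0.22 (adjusted p = 0.044), but not without IL-10+ replicate 1 or 2 (adjusted p = 0.288 and 0.116) or IL-10- replicate 3 (0.0889) or after median centring (0.18).

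Hnrnpd, which also binds AU-rich elements of short-lived messenger RNAs, was lower by 0.51 (adjusted p = 0.000759), and Ptbp1, the polypyrimidine tract binding repressor, by 0.35 (adjusted p = 0.00448). Hnrnpc was lower by 0.33 in its brightest probe set (adjusted p = 0.0112). That call was lost without IL-10+ replicate 1 or 2 and after centring on bright probe sets (adjusted p = 0.0536). The third Hnrnpc probe set was higher by 0.31, a call lost without IL-10+ replicate 1 or 2. In Hnrnpa1 the brightest probe set differed by 0.21 and was not called (adjusted p = 0.101), except without IL-10- replicate 4 (0.0076), after quantile normalisation (0.017) and after centring on bright probe sets (0.0145). Its second (1436549_a_at) read 9.09 and 9.20 in IL-10+ and 9.73 and 10.09 in IL-10- cells, a difference of -0.77 (SE 0.12, adjusted p = 0.00191). Further probe sets of this gene name several genes and were not used. Hnrnpu, a scaffold attachment factor, was not called in its brightest probe set, while 2 dimmer ones were higher, by 0.33 and 0.28, and 2 lower, by 0.38 and 0.31. Of these 4 calls that of the second probe set, lower by 0.38, held without any 1 array, while the others were lost without IL-10+ replicate 1 (adjusted p = 0.0567, 0.129 and 0.071) and those of both higher ones also without IL-10+ replicate 2 (0.109 and 0.0982), the weaker of them without IL-10- replicate 3 as well (0.0546). The higher calls were lost also after median centring (0.0516 and 0.0827), and the weaker lower one after centring on bright probe sets (0.0661). Hnrnpa2b1 was higher in 1 of 4 probe sets, by 0.28, not without IL-10+ replicate 1 or 2 (adjusted p = 0.104 and 0.0598). Hnrnpk and Hnrnph1 had 0 of 6 probe sets called by limma, with differences of -0.09 to 0.12, and likewise 0 at an unadjusted p of 0.05 or with the other priors, though the third Hnrnpk probe set was called higher after quantile normalisation (0.27, adjusted p = 0.0119) and after centring on bright probe sets (0.24, adjusted p = 0.0292).

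CELF and MBNL proteins act against each other on many exons. Celf2, which increases upon T-cell activation in human cells, had the largest lower call of all 203 probe sets. Its second of 7 (1423895_a_at) read 9.85 and 9.63 in IL-10+ and 10.92 and 10.86 in IL-10- cells, a difference of -1.16 (SE 0.085, adjusted p = 7.75e-05). The brightest and the third Celf2 probe sets differed by -0.16 and -0.17 and were not called, while the fifth was lower by 0.36. The call of the fifth held without any 1 array and under each scaling. The gap of the second to the brightest was smaller in IL-10+ cells (adjusted p = 0.00049).

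In Celf1 the brightest probe set read 10.06 and 10.17 in IL-10+ and 10.34 and 10.45 in IL-10- cells, a difference of -0.28 (SE 0.074, adjusted p = 0.0233) that was lost without IL-10+ replicate 1 (adjusted p = 0.184) and after quantile normalisation (0.11) or centring on bright probe sets (0.108). The fourth (1425932_a_at) read 7.28 and 7.45 against 6.65 and 6.35, a difference of 0.86 (SE 0.11, adjusted p = 0.000839). Mbnl1, at 12.12 to 12.28 in its brightest probe set, was not called there, and both its dimmer ones were higher, by 0.41 and 0.36, the latter not without IL-10+ replicate 2 (adjusted p = 0.086). The 3 brightest probe sets of these proteins thus all had differences below 0 on the deposited scale, of which 1 was called.

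Components of nuclear bodies had 8 of 15 probe sets higher and 1 lower, where 13.9% and 18.4% of all single-gene probe sets were called. Malat1 alone gave 5 of the 8. Of the 3 brightest probe sets 1 was higher and 0 were lower, against 8.37% and 22.9% over all genes. Sfpq, a paraspeckle protein and splicing factor, gave the largest difference of all splicing genes. The third of its 6 probe sets (1436898_at) read 10.46 and 10.59 in IL-10+ and 8.53 and 8.34 in IL-10- cells, a difference of 2.08 (SE 0.085, adjusted p = 9.85e-06), or 4.24-fold if the scale is log2. Both IL-10+ arrays were far above both IL-10- arrays, and the call held without any 1 of them. The brightest by mean read 9.95 and 10.12 against 10.08 and 10.22, with overlapping groups and a difference of -0.11 that was not called.

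The fifth Sfpq probe set read 8.98 and 9.02 against 9.28 and 9.37, a difference of -0.32 (SE 0.067, adjusted p = 0.00849) that was lost without IL-10+ replicate 1 (adjusted p = 0.0727) and after centring on bright probe sets (0.0512). The second was higher by 0.35 (adjusted p = 0.0238), not without IL-10+ replicate 1 or 2 (adjusted p = 0.0512 and 0.127) or after median centring (0.0554), and its difference was 0.23 without IL-10- replicate 3. The gap of the third to the brightest differed by 2.19 (SE 0.12, adjusted p = 1.49e-05).

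Malat1 is a long non-coding RNA of nuclear speckles. Its brightest probe set (1436202_at) read 9.84 and 9.92 in IL-10+ and 9.59 and 9.81 in IL-10- cells, a difference of 0.18 (SE 0.086, adjusted p = 0.159) that was called higher without IL-10- replicate 4 (0.0107), after quantile normalisation (0.0216) and after centring on bright probe sets (0.018). The second (1438403_s_at) read 8.73 and 9.35 against 7.76 and 8.69, a difference of 0.82 (SE 0.30, adjusted p = 0.0792) with 1 array of each group far from the other. It was called without IL-10+ replicate 1 (1.13, adjusted p = 0.0229), without IL-10- replicate 4 (1.28, adjusted p = 5.19e-05) and after centring on bright probe sets (0.0185), while the difference was 0.50 without IL-10+ replicate 2 and 0.35 without IL-10- replicate 3. The third (1418189_s_at) read 9.04 and 9.39 against 7.51 and 7.68, a difference of 1.62 (SE 0.12, adjusted p = 7.75e-05). From the third on, every Malat1 probe set was higher.

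The fourth Malat1 probe set (1429060_at) read 8.18 and 8.19 against 7.57 and 7.56, a difference of 0.62 (SE 0.061, adjusted p = 0.000282). The fifth (1418188_a_at) read 7.92 and 8.21 against 6.29 and 6.21, a difference of 1.82 (SE 0.10, adjusted p = 2.69e-05). The sixth (1452378_at) read 7.13 and 7.13 against 6.25 and 6.38, a difference of 0.81 (SE 0.069, adjusted p = 0.000149). Those 3 were high on both IL-10+ arrays. The seventh (1427285_s_at) read 6.67 and 6.83 against 6.20 and 6.13, a difference of 0.58 (SE 0.075, adjusted p = 0.000941). Thus 5 of 7 Malat1 probe sets were higher and 0 lower, and these 5 also shifted up against the brightest, by 0.40 to 1.63.

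Neat1, the long non-coding RNA on which paraspeckles are built, was higher in its brightest probe set (1428083_at). It read 10.84 and 10.87 in IL-10+ and 10.19 and 10.37 in IL-10- cells, a difference of 0.58 (SE 0.078, adjusted p = 0.00115). The other (1442881_at) read 6.61 and 6.58 against 6.53 and 6.42, a difference of 0.11 (SE 0.068, adjusted p = 0.272) that was not called. Here the brighter probe set carried the difference, unlike in Malat1.

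The 2 arrays of a group were not equally close. For splicing genes the median distance between the IL-10+ arrays was 0.058 and that between the IL-10- arrays 0.115, against 0.062 and 0.084 over all genes. IL-10- replicate 3 read below replicate 4 in 140 of the 203 probe sets (69.0%), against 49.6% over all genes, and in 46 of the 76 that were called higher. IL-10+ replicate 1 read below replicate 2 in 144 of the 203 (70.9%), against 54.9% over all genes, and in 63 of the 76 called higher. Within the IL-10- group the 5′ probe sets of all 4 added transcripts and of Gapdh were lower on replicate 4. The 5′ probe set of b-actin was lower on replicate 3 instead (12.824, against 13.065 on replicate 4). Both IL-10+ arrays were above both IL-10- arrays in each of these 5′ controls. Their part in the differences between replicates was not tested.

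The promoters of these genes are shown for 5 genes with 1 listed start site, of which Srsf5 and Malat1 had probe sets that rose, Srpk1 had probe sets that fell, and Sfpq and Son had both. Each sequence is the 120 bases before the start in RefSeq (GRCm38.p6), 5′ to 3′ on the strand of the gene, with capitals for a CCAAT box (CCAAT or ATTGG), a GC box (GGGCGG or CCGCCC), an ETS motif (CCGGAAG or CTTCCGG), a cyclic AMP response element (TGACGTCA) or a TATA box (TATAAA or TTTATA), the letters of both strands being searched. In Srsf5 a GC box and an ETS motif overlap, and in Sfpq a pair of CCAAT boxes on opposite strands.
Sfpq, chr4:127021181-127021300, plus strand: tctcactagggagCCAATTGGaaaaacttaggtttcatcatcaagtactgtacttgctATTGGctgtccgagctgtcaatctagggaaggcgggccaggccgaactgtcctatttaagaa
Srsf5, chr12:80945379-80945498, plus strand: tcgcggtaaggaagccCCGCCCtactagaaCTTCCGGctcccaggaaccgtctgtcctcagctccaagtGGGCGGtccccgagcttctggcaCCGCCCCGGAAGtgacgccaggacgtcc
Srpk1, chr17:28622522-28622641, minus strand: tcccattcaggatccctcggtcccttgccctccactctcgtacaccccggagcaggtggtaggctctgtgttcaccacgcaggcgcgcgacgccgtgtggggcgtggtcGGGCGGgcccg
Son, chr16:91647704-91647823, plus strand: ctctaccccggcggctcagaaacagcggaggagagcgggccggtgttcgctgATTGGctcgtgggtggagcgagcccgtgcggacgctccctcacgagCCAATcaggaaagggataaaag
Malat1, chr19:5802673-5802792, minus strand: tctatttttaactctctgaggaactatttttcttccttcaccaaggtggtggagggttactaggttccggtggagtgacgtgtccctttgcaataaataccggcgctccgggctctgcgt

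Over windows of 300 bases, from 250 before to 50 after each start, 45 of the 51 genes had 66 windows. A GC box stood in 63.6% of these windows and in 35.7% of all 32851, an ETS motif in 16.7% and 8.86%, a CCAAT box in 42.4% and 37.4%, a TATA box in 12.1% and 13.6%, and a cyclic AMP response element in 3.03% and 1.79%. Of 9 genes with a window whose brightest probe set was higher, 6 had a GC box, 1 an ETS motif and 6 a CCAAT box. Of 16 whose brightest was lower, 12 had a GC box, 6 an ETS motif and 6 a CCAAT box. A TATA box stood in 2 genes of each kind and a cyclic AMP response element in 0. A match of letters is a description of the sequence and not a bound site.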

How the data were processed

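RNA of sorted T-cells was hybridised to Affymetrix mouse genome arrays, 1 per sample, and the authors applied variance stabilisation in Bioconductor before they deposited the values. The deposited values were read as log2 because the base is not stated, and the array medians were 6.41, 6.41, 6.35 and 6.31, so the arrays were not centred on their medians. Probe summarisation and genome build are not given in the sources used here. Of 45101 values per array 64 belong to control probe sets. The other 45037 were fitted with limma 3.58.1 (R 4.3.3), IL-10+ minus IL-10-, and p-values were adjusted by Benjamini-Hochberg over the whole set, and calls were made at an adjusted p under 0.05. Gaps between a dimmer and the brightest probe set of a gene were fitted in the same way over 16752 dimmer probe sets. The fits have 2 residual degrees of freedom, to which the prior adds 5.44 for probe sets and 6.31 for gaps.

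Probe sets were named from the platform annotation where it gives 1 gene: 34945 had 1 name and 932 several, and Hnrpll was found under its newer name Hnrnpll. Arrays give no counts, so the precision is limited by their number. Values of every array were given for the 12 largest called differences in each direction, for the brightest probe set with the largest called difference of each role, for up to 10 genes called in both directions, and for all probe sets of Malat1, Neat1, Clk1, Clk4 and Rbm5. Other values were named after they were seen. The genes and lists were chosen with earlier results of these data known. Alternatives were quantile normalisation, centring on the median or on bright probe sets, filters, other priors, the stricter limits and leaving out each array.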

Additional observations from a re-analysis of the deposited data

Results flagged for a closer look

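The 5′ probe sets of 4 poly-A transcripts added to the RNA differed between the groups by a median of 1.22 (0.68 to 2.16) with both IL-10+ arrays above both IL-10- arrays in each transcript. They lie outside the comparison of splicing genes. The middle probe sets differed by a median of 0.82 and the 3′ probe sets by 0.04. Their part in the differences between probe sets of 1 gene was not tested.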

How the results depend on the processing

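Of the 45 called probe sets whose naming was fixed by the rule, 5 lost the call in at least 1 of up to 10 alternatives (Srsf11, Rbm5, Prpf38b, Celf1 and Sfpq, 1 probe set each), and no call turned direction. The others that lost a call are named beside their values or counted next. Over the called probe sets of all splicing genes, the call was kept in every leave-out and scaling by 7 of 11 brightest higher, 11 of 17 brightest lower, 47 of 65 dimmer higher and 14 of 22 dimmer lower probe sets. Centring on bright probe sets left 25 lower, 11 of them brightest and 14 dimmer, and leaving out probe sets marked s or x left 14 dimmer ones lower. At 2-fold and an adjusted p under 0.001 there were 15 higher (2 brightest, 13 dimmer), 2 lower (1 and 1), 13 gaps larger and 4 smaller, and with values taken as natural logs, chosen after seeing the data, 26 higher (2 and 24), 3 lower (1 and 2), 29 gaps larger and 7 smaller. Reading only a mean of 7 or more left 44 gaps larger. Averaging the probe sets of a gene gave 20 genes higher and 11 lower. Shares over all genes were not read for this averaging or for gaps at the stricter limits. The cause of these shifts in the counts was not tested, beyond fewer probe sets being read in the filters. The shares called over all genes moved too, for the brightest and the dimmer probe sets alike. They fell without either IL-10+ array and rose without IL-10- replicate 3. Leaving out each array gave 56 to 87 higher and 26 to 46 lower, for the brightest 7 to 16 and 11 to 17, for the dimmer 49 to 71 and 15 to 29, and for gaps 42 to 75 larger and 15 to 31 smaller. Of the 88 uncalled probe sets of splicing genes 44 turned sign under at least 1 scaling, and 38 were called in at least 1 scaling or leave-out. Of the probe sets named by the rule 3 turned sign. The fifth Rbm5 probe set gave -0.034 under median centring, -0.030 under quantile normalisation, -0.0167 without IL-10+ replicate 2 and -0.0161 without IL-10- replicate 4. Clk1 gave 0.10 after centring on bright probe sets, 0.15 after quantile normalisation and between -0.14 and 0.10 over the 4 leave-outs. The brighter Clk4 probe set gave -0.047 under median centring and between -0.19 and 0.25 over the leave-outs. No paired analysis was possible because the groups share no replicate numbers.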
